A study of Mus musculus with 4 samples.

Results

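The genes described are the integrin and laminin subunit genes of the mouse. They were chosen by symbol: every gene whose name is Itga or Itgb, or Lama, Lamb or Lamc, followed by the subunit number or letter, with Itgb1bp1, Itgb1bp2 and Itgbl1 set aside because they are not subunits. The symbols matched 39 genes of the 27998 rows of the gene table. One of them, Itgb3bp, is a centromere protein that only shares the name, and it was also set aside, although it was abundant (7552 unique molecular identifiers, UMIs). The 38 that remained were 18 integrin alpha, 9 integrin beta, 5 laminin alpha, 3 laminin beta and 3 laminin gamma genes.

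The study obtained single-cell transcriptomes of the cardiac conduction system in mouse hearts. Regions holding the sinoatrial node (SAN), the atrioventricular node and His bundle (AVN/His), and the bundle branches and Purkinje fibers (BB/PF) of each ventricle, left and right, were microdissected, and each region gave 1 library of 10x Genomics 3' UMI counts. All libraries came from wild-type CD1 embryos at embryonic day 16.5. The labels do not state how many hearts entered a library, so intervals within a library cover counting error only, and tests over libraries take regions of the heart as replicates of a cell class. Levels are given below as UMIs of a gene per 10000 UMIs of the cells named, and values in 4 libraries are listed in the order SAN, AVN/His, left and right.

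Integrins are receptors of 1 alpha and 1 beta chain that bind the extracellular matrix or other cells and link them to actin through talin and kindlin. Laminins are trimers of an alpha, a beta and a gamma chain, and with collagen IV, nidogen and perlecan they build the basement membrane that surrounds each myocyte and underlies endothelium. Integrins alpha 3, alpha 6 and alpha 7 with beta 1, and alpha 6 with beta 4, are laminin receptors. Those with alpha v, alpha 5, alpha 8 and alpha 9 bind fibronectin, vitronectin, tenascin or related ligands, and the beta 2 chain is restricted to leukocytes.

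After cells with at least 500 genes were kept, 21035 cells remained of 22805 barcodes (5934, 5645, 5100 and 4356), with medians of 8479.5 to 9272 UMIs per cell. Of the kept barcodes, 230 occurred in more than 1 library. Cells were clustered without any of the 38 genes, so no member shaped a cluster, and clusters were named "-like" from marker genes. The classes held 9735 ventricular-like, 3108 fibroblast-like, 2978 atrial-like, 1122 coronary endothelial-like, 1082 valve mesenchyme-like, 780 endocardial-like, 606 pericyte-like, 399 macrophage-like, 244 nodal-like, 239 erythroid-like, 205 smooth muscle-like, 201 epicardial-like, 167 PF-like, 100 other endothelial-like and 69 neural-like cells. PF-like cells passed 7 of 8 PF markers in each of 3 libraries (Irx3, Irx1, Etv1 and Gja5 among them), and Cntn2 did not pass in any of them. Nodal-like cells of the SAN library passed 7 of 7 SAN markers. Nodal-like cells of the AVN/His library passed 5 of 7 AVN/His markers, and Hcn4 and Kcne1 did not pass. Nodal-like cells of the SAN library are called SAN-like below, and those of the AVN/His library AVN/His-like. The 56 ventricular-like cells of the SAN library stood apart: their median was 6124 UMIs, and 14 of them held UMIs of at least 3 endothelial markers, so results on ventricular-like cells are also given without them.

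Of the 38 genes, 29 had at least 100 UMIs in the kept cells and 9 had fewer. The counting is by molecule at the 3' end, so gene length does not scale these values, though capture can differ between genes. Itgb1, the common beta chain, led with 55212 UMIs and a UMI in 83.2% of cells. Lamc1 (17875 UMIs), Lamb1 (15318), Lama4 (13411), Itga6 (11906), Itgb5 (8570), Itga5 (8187) and Lamb2 (5372) followed. The 9 scarce genes were Itga11 (43 UMIs), Itgad (37), Itgae (31), Itgb6 (26), Itgax (26), Lamc3 (26), Lama1 (17), Itgb7 (17) and Itgb2l (1). All 38 genes lie on 14 chromosomes of GRCm38, the build behind mm10, by the GENCODE M21 annotation. Some are neighbors: Itgam, Itgax and Itgad follow each other on chromosome 7 with 11056 and 3719 bases between them, and Itga2 and Itga1 are 20996 bases apart on chromosome 13.

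**Figure D1:**
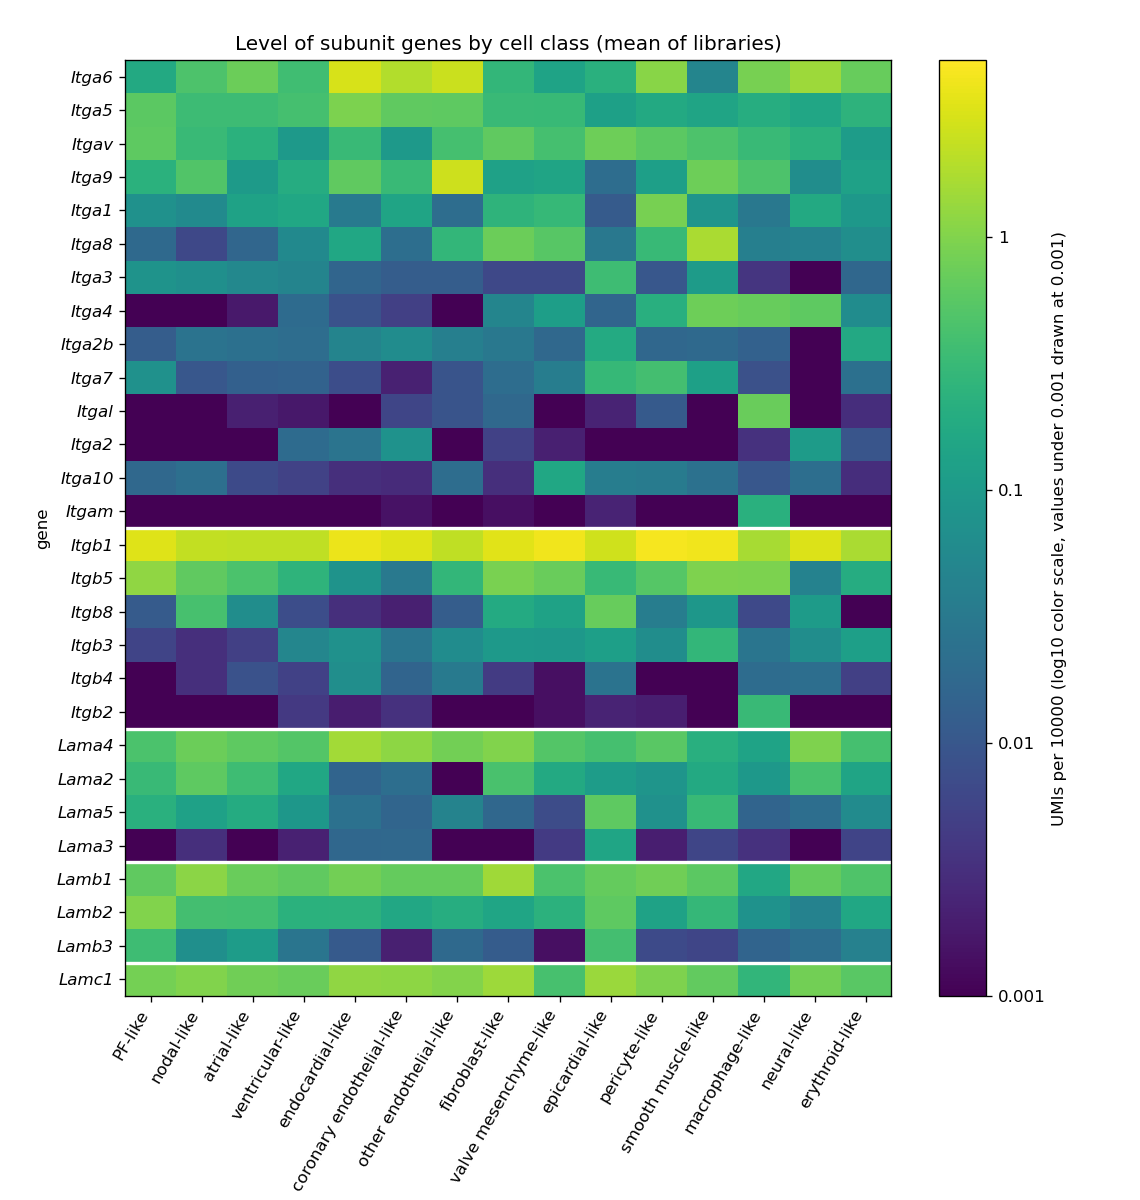
Levels of 28 of the 29 subunit genes with at least 100 UMIs (rows, grouped by chain type) in 15 cell classes (columns), as UMIs per 10000 averaged over libraries, on a log color scale. Itgb1 is high in every class, while Itgal, Itgam and Itgb2 stand out in macrophage-like cells and Itga6 in the endothelial classes.

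The question closest to the study was which subunit genes mark the conduction cells. In PF-like cells the genes of both chains of the vitronectin receptor alpha v beta 5, Itgav and Itgb5, were several-fold higher than in ventricular-like cells. The same held for the laminin beta genes Lamb2 and Lamb3. PF-like cells of the left and right BB/PF libraries (66 and 55 cells) were compared with the remaining cardiomyocyte-like cells of those libraries, all ventricular-like (4225 and 2807). Atrial-like cells were thus not part of the test. In the SAN and AVN/His libraries they had 0.394 and 0.506 UMIs per 10000 for Itgb5 and 0.260 and 0.202 for Itgav. They had 0.341 and 0.427 for Lamb2 and 0.202 and 0.0225 for Lamb3. The PF-like means over 3 libraries were 1.20, 0.609, 0.994 and 0.356 in that order. Of 21 members tested, 8 were higher and 1 was lower. Among all 11967 genes tested, 8.73% were higher and 11.8% were lower. The median log2 fold change was 0.55 over the 21 members and -0.08 over all genes. With scaling by library size alone, 60.3% of all called genes were higher in place of 42.5%. The 8 members stayed higher and the number called higher grew to 9, while the call on Itga1 was lost.

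Itgb5 lies at chr16:33829665-33949338 on the forward strand and encodes the beta 5 chain, which pairs with alpha v only. It had 1.37 and 1.31 UMIs per 10000 in PF-like cells of the left and right libraries, against 0.261 and 0.304 in the other cardiomyocyte-like cells. Every PF-like value was above every other value, and the log2 fold change was 2.07 ± 0.17 (SE, adjusted p = 3.1e-33). A UMI of Itgb5 was found in 60.6% and 61.8% of the PF-like cells. In coronary endothelial-like cells, which had the lowest level of this gene, the share was 4.37% over all libraries, at a median of 12770.5 UMIs per cell against 9216 in PF-like cells. Other classes came closer to the PF-like mean over libraries of 1.20. Smooth muscle-like cells had a mean of 0.953, macrophage-like cells 0.934 and fibroblast-like cells 0.892.

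Itgav lies at chr2:83724397-83806916 on the forward strand and encodes the alpha v chain, partner of beta 1, beta 3, beta 5, beta 6 and beta 8. Its levels were 0.772 and 0.482 in PF-like cells, against 0.0624 and 0.0835 in the other cardiomyocyte-like cells, and the log2 fold change was 2.94 ± 0.30 (SE, adjusted p = 3.8e-21). UMIs of both Itgav and Itgb5 were found in 40 of 167 PF-like cells (24%), in 179 of 9735 ventricular-like cells (1.84%) and in 8 of 1122 coronary endothelial-like cells (0.713%). Fibroblast-like cells, with 654 of 3108 cells (21.0%), had a share near that of PF-like cells. By the mean over libraries, Itgav was higher in epicardial-like (0.752) and fibroblast-like (0.635) than in PF-like cells (0.609). Itgb5 and Itgav stand in the study's own table of surface genes of the PF, which was made from these libraries, so their rise here is not independent evidence.

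Lamb2, the beta chain of the laminins found at mature muscle basement membranes and synapses, had 1.11 and 0.906 UMIs per 10000 in PF-like cells, against 0.268 and 0.287 in the other cardiomyocyte-like cells. The log2 fold change was 1.69 ± 0.18 (SE, adjusted p = 3.1e-18). Lamb3, best known from the laminin of epithelial hemidesmosomes, rose by 4.03 ± 0.44 on the log2 scale (SE, adjusted p = 8.9e-18), on 44 UMIs in PF-like cells. Its mean was 0.396 ± 0.070 in PF-like cells and 0.0213 ± 0.0058 in the other cardiomyocyte-like cells (SD, n = 2 each). Lama3 was too scarce in these cells to be tested.

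The other members called higher in PF-like cells were Itgb1, Itga5 (the fibronectin receptor chain), Itga9 and Itga7 (a laminin receptor chain of muscle), with log2 fold changes of 0.40, 0.55, 1.07 and 2.16. Itga9, whose chain binds tenascin and VCAM1, had 0.223 and 0.212 UMIs per 10000 in PF-like cells, against 0.0671 and 0.123 in the others (adjusted p = 0.038). Itga1, a collagen receptor chain, was the only member called lower (log2 fold change -1.37 ± 0.48 SE, adjusted p = 0.025). Its levels of 0 and 0.154 in PF-like cells overlapped with those of 0.134 and 0.198 in the others. The 12 tested members that were not called included Lamc1, Itga8, Itga6, Lama5, Itga10, Lama2, Lama4, Itga3, Itga2b, Itgb3 and Lamb1. The fit had 1 residual degree of freedom and so leaned on the spread shared across genes. With DESeq2, 4 of the members stayed called higher (Itgb5, Itgav, Lamb2 and Lamb3), and Itga7, Itgb1, Itga9, Itga5 and Itga1 were no longer called (adjusted p of 0.36, 0.13, 0.30, 0.40 and 0.29).

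**Figure D2:**
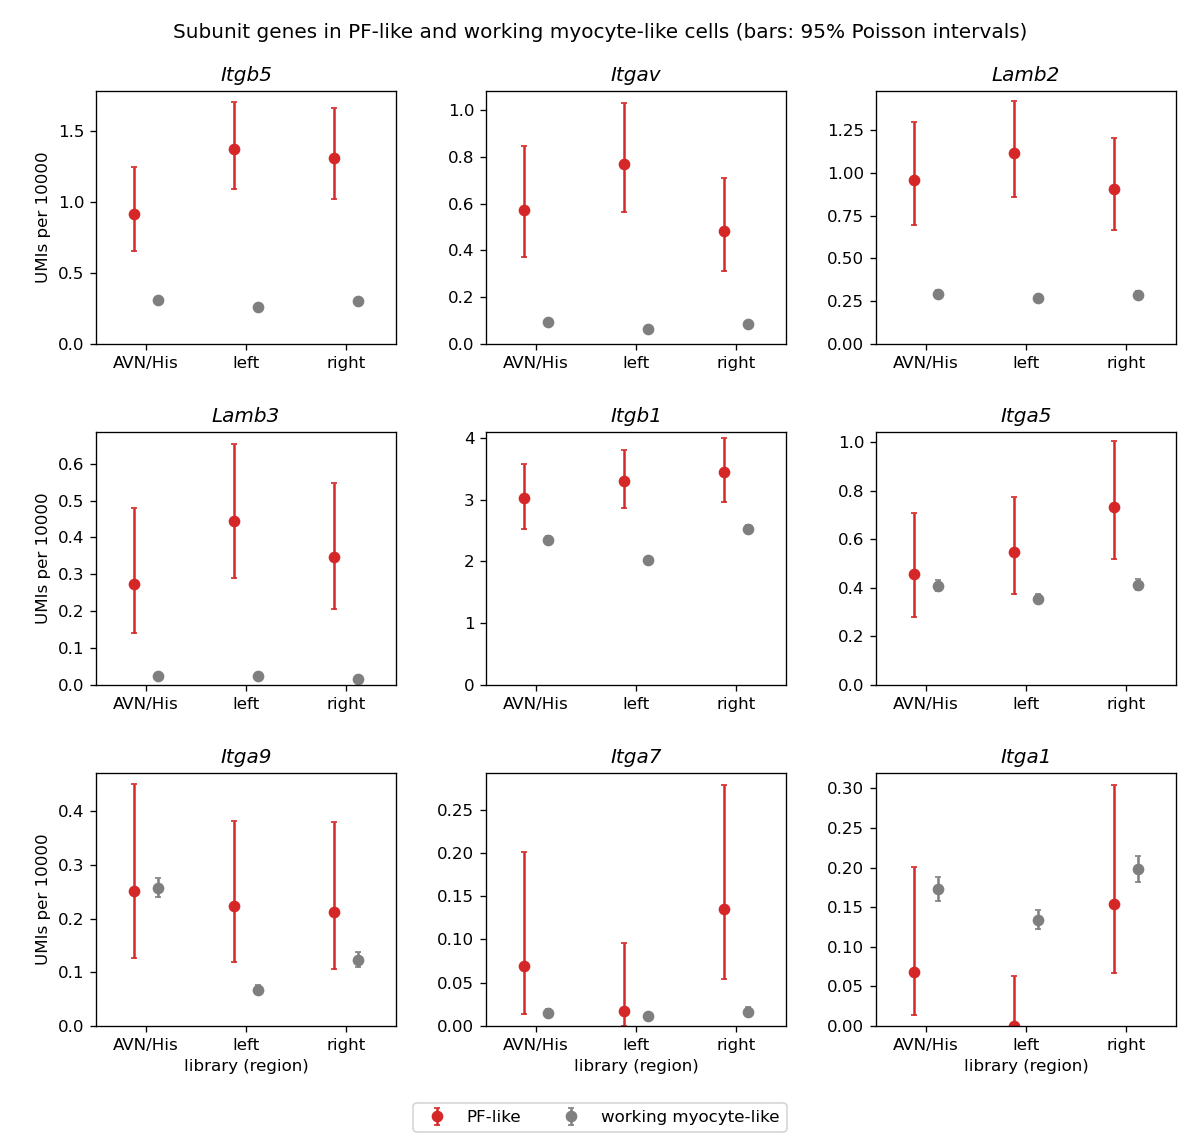
Levels of the 9 members called in PF-like cells, as UMIs per 10000 with 95% Poisson intervals, in PF-like (red) and working myocyte-like cells (gray) of the AVN/His, left and right libraries. For Itgb5, Itgav, Lamb2 and Lamb3 the intervals lie apart in all 3 libraries, and for Itga9 they lie apart only in the left library.

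The 44 PF-like cells of the AVN/His library were not part of that test. Their levels, set beside the working myocyte-like (atrial-like and ventricular-like) cells of that library, were 0.916 against 0.311 for Itgb5, 0.573 against 0.0941 for Itgav, 0.962 against 0.293 for Lamb2 and 0.275 against 0.025 for Lamb3. The ratios were 2.94, 6.09, 3.28 and 11, with 95% intervals for counting error that all lay above 1. Lama5 was also higher there (ratio 3.37, interval 1.82 to 5.75). In total 7 of 18 members with at least 50 UMIs had an interval above 1 in the PF-like cells of the AVN/His library, 9 of 17 in the left and 10 of 17 in the right. The share of all genes with such an interval was not computed, so these counts are no result about the members as a group. Itga1 in the left library was the only member with an interval below 1.

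The promoters of Itgb5, Itgav and Lamb2 are shown because they are the members with the smallest p among those called higher in PF-like cells. For 24 of the 38 members the RefSeq set holds a promoter, taken as 250 bases before to 50 bases after the start (GRCm38.p6). The sequences run 5′ to 3′ on the strand of the gene, and capitals mark a GC box (GGGCGG or CCGCCC).
Itgb5, chr16:33829415-33829714, forward strand: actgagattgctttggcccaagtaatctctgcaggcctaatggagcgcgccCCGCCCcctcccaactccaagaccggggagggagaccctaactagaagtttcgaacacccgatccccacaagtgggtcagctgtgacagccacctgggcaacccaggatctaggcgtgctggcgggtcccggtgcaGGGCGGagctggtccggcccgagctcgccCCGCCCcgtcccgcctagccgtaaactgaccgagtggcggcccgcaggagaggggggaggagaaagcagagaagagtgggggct
Itgav, chr2:83724147-83724446, forward strand: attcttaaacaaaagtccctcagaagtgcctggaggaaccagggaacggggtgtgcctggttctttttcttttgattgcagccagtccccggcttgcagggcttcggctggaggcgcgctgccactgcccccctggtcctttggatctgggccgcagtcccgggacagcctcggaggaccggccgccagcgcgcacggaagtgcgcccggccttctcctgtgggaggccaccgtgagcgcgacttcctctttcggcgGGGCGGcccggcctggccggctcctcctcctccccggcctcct
Lamb2, chr9:108479612-108479911, forward strand: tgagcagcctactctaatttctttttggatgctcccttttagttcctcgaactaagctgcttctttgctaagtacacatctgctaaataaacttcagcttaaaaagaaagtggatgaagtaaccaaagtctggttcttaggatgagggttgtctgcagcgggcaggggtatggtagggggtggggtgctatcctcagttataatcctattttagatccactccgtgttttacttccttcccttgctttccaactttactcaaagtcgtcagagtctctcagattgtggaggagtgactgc
The Itgb5 promoter held 3 GC boxes and the Itgav promoter 1, while the Lamb2 promoter held none. A GC box on either strand was found in 35.7% of all 32851 promoters. TATAAA (13.6% of all promoters), CCGGAA of ETS factors (14.9%), AGATAA of GATA factors (11.2%) and GGTGTGA of T-box factors (3.98%), read on both strands, matched in none of the 3. The GC content was 65.7% for Itgb5, 67.3% for Itgav and 44.0% for Lamb2, beside a median of 52.7% over all promoters. Lamb3, the other member called higher with DESeq2 too, has a pair of promoters in the set, which are not shown, each with 0 GC boxes, 0 matches to the other motifs and a GC content of 59.3%. These matches describe letters only.

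In the nodes, among members with at least 50 UMIs, Itgb8 and Itga9 had the highest ratios to working myocyte-like cells in SAN-like cells. In AVN/His-like cells Itgb8 was again first, but Itga9 stood behind Itga6, Lama2, Itgav and Lamb1. Each node was sampled in 1 library, so the values below are levels and ratios with 95% intervals for counting error, and no test was possible. The nodal-like cells of the SAN library (178 SAN-like cells) were set beside its 2963 working myocyte-like cells, which were nearly all atrial-like. The 66 AVN/His-like cells were set beside 2718 working myocyte-like cells, of which 71 were atrial-like and the rest ventricular-like.

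Itgb8, whose chain with alpha v activates latent TGF-beta, had 0.203 UMIs per 10000 in SAN-like cells, against 0.0290 in working myocyte-like cells (ratio 7.0, interval 4.50 to 10.6). In AVN/His-like cells it had 0.628, against 0.0220 in working myocyte-like cells (ratio 28.5, interval 19.1 to 42.2). Set beside the 71 atrial-like cells of the same library, with 0.101, the ratio was 6.21 (interval 3.0 to 14.4). A UMI of Itgb8 was found in 12.9% of SAN-like and 42.4% of AVN/His-like cells, against 2.60% and 1.77% of the working myocyte-like cells.

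Itga9 had 0.424 UMIs per 10000 in SAN-like cells, against 0.0666 in working myocyte-like cells (ratio 6.37, interval 4.75 to 8.46). In AVN/His-like cells it had 0.560, against 0.257 in working myocyte-like cells (ratio 2.18, interval 1.55 to 2.98), and the ratio to the atrial-like cells of that library was 3.83 (interval 2.01 to 7.79). Itga9 is in the study's own surface gene table for AVN/His, made from these libraries. Itgav and Itgb5 were higher in both nodes by less than in PF-like cells. Their ratios were 1.42 and 1.63 in SAN-like cells and 2.90 and 1.93 in AVN/His-like cells, and beside the atrial-like cells of the AVN/His library the ratios of 1.35 and 1.19 had intervals that held 1.

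Itga6, the alpha chain of the main laminin receptors, went in opposite directions. It had 0.329 UMIs per 10000 in SAN-like cells, against 0.928 in working myocyte-like cells (ratio 0.355, interval 0.265 to 0.467), and 0.587 in AVN/His-like cells, against 0.0911 in working myocyte-like cells (ratio 6.45, interval 4.56 to 8.92). The atrial-like cells of the AVN/His library had 0.574, and the ratio to them was 1.02 (interval 0.666 to 1.57). Among the laminins, Lama2, the main alpha chain of muscle basement membrane, was higher in both nodes (ratios 1.82 and 3.08), as were Lamb1 (1.24 and 2.34) and Lamc1 (1.23 and 1.40). Lama4 was higher in AVN/His-like cells (2.11), and Lamb2 in SAN-like cells (1.40). Itga1 was lower in both nodes (0.443 and 0.395), and Lamb3 (0.577) and Itgb1 (0.850) were lower in SAN-like cells. For the counts that follow, the share over all genes was not computed, so they are no result about the members as a group. In all, 9 of 20 members were above 1 and 4 below in SAN-like cells, and 9 of 18 above and 1 below in AVN/His-like cells. Beside the 71 atrial-like cells of the AVN/His library, 4 of those 9 kept an interval above 1 (Itgb8, Itga9, Lama2 and Lamb1), while the intervals of Itga6, Itgav, Itgb5, Lama4 (0.955 to 2.02) and Lamc1 (0.904 to 1.84) held 1, as did that of Itga1 (0.122 to 1.27).

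**Figure D3:**
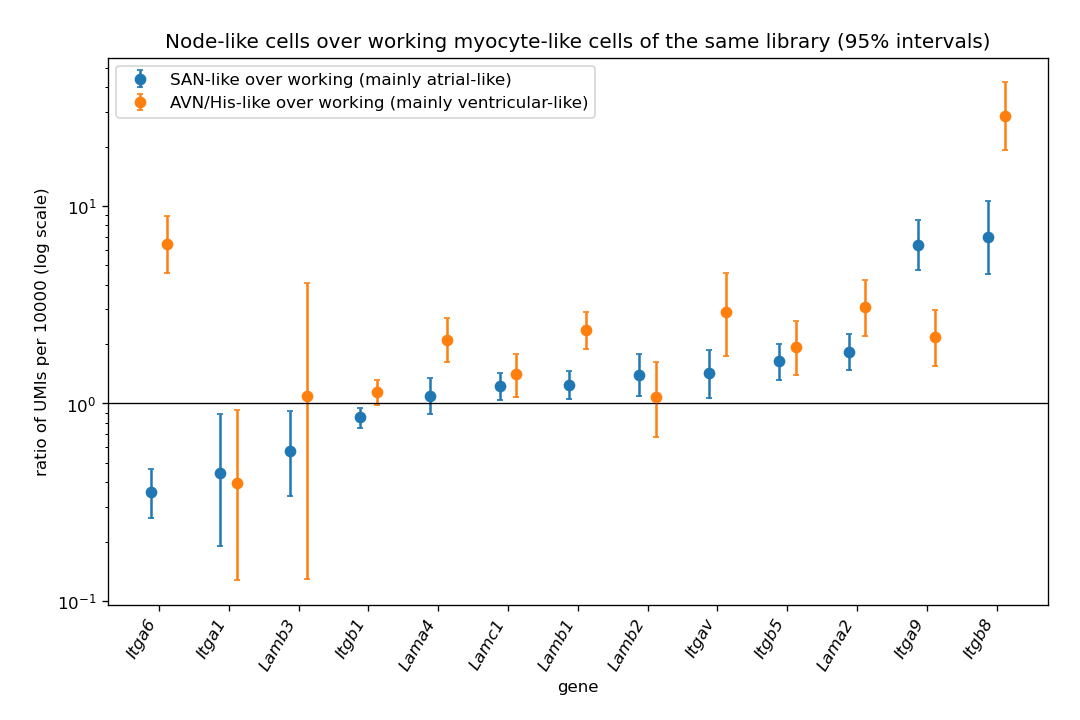
Ratio of the level in SAN-like (blue) and AVN/His-like cells (orange) to that in working myocyte-like cells of the same library, on a log axis, with 95% intervals for counting error. Itgb8 and Itga9 lie above 1 in both nodes, and Itga6 lies at 0.355 in SAN-like and 6.45 in AVN/His-like cells.

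Atrial-like and ventricular-like myocytes themselves differed in Itga6. Within the AVN/His library the atrial-like cells had 0.574 UMIs per 10000 and the ventricular-like cells 0.0763 (ratio 7.51, interval 5.43 to 10.2, counting error only). The SAN library ran the other way, with 0.921 in its 2907 atrial-like cells (interval 0.886 to 0.957) and 1.18 in its 56 ventricular-like cells (interval 0.942 to 1.47), of which 14 held UMIs of at least 3 endothelial markers. Atrial-like cells of the SAN library had 0.921, 9.34 times the 0.0987 of ventricular-like cells of the left library, a difference in which region and class cannot be told apart. Itgb8 (ratio 5.17), Itgav (2.23), Lama2 (1.92), Itgb5 (1.66), Lama4 (1.54) and Lamb2 (1.48) were also higher in the atrial-like cells of the AVN/His library, with intervals above 1, and Itga9 was lower (0.561, interval 0.297 to 0.965).

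Each broad class was then compared with all other cells of the same libraries, with the 4 libraries as replicates. Levels were taken per library from the summed UMIs of each group, and a member counted as called at an adjusted p under 0.05 over all genes tested. Members said not to overlap between groups, here and for PF-like cells above, had been picked by their p. The share of all genes without overlap was not computed, so the lack of overlap adds no support to a call. Scaling by library size alone, in place of TMM factors, moved the median log2 fold change of all genes to -0.45 against -0.04 in cardiomyocyte-like, 0.17 against -0.08 in endocardial-like, 0.12 against -0.05 in fibroblast-like and 0.09 against -0.07 in mural-like cells, and to 0.20 against 0.02 between the endothelial classes. It turned the direction of no called member in any of the 8 tests. Among all called genes the share that was higher moved to 29.4% against 47.9%, 58.9% against 41.4%, 56.0% against 45.6%, 56.3% against 43.2% and 67.4% against 48.4% in the same order, and among the called members of the mural test to 64.3% against 53.3%.

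**Figure D4:**
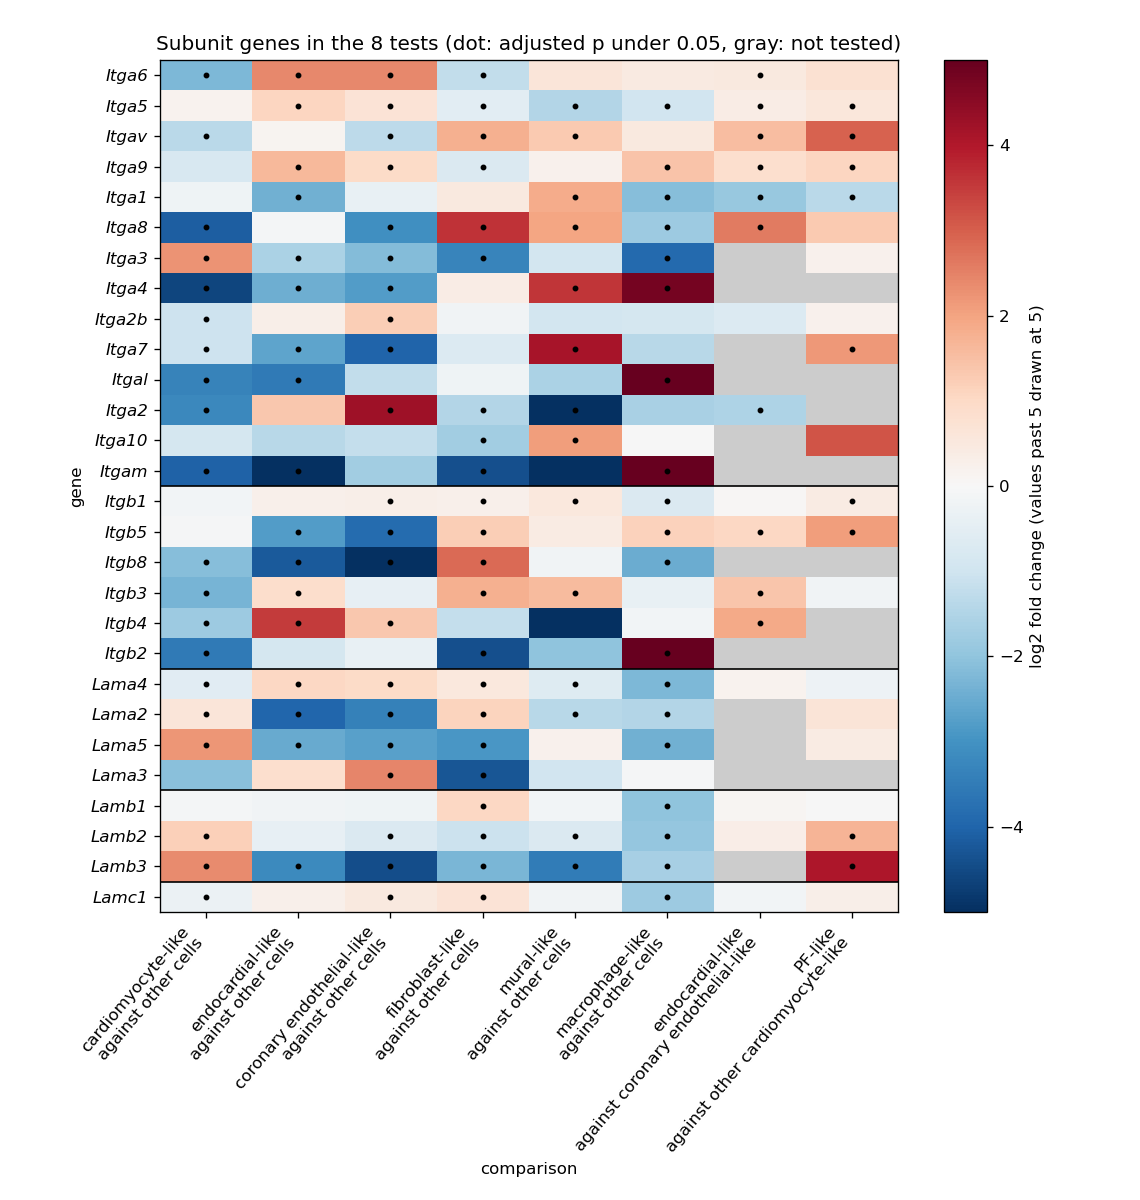
Log2 fold changes of 28 of the 29 subunit genes with at least 100 UMIs (rows) in the 8 tests (columns), red for higher and blue for lower in the class named first, with a dot where the adjusted p is under 0.05 and gray where the gene was not tested. Lamb3 is red in PF-like and cardiomyocyte-like cells and blue in 5 other classes.

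Cardiomyocyte-like cells had more of the laminin genes Lamb2, Lamb3, Lama5 and Lama2 and of Itga3, and less of Itga8, Itga4, Itgal, Itgam and Itgb2. Of 29 members tested, 6 were higher and 15 lower, beside 33.6% and 36.6% of all 14837 genes (median log2 fold change -0.88 over members, -0.04 over all genes). Lamb2 had 0.341, 0.303, 0.280 and 0.298 UMIs per 10000 in cardiomyocyte-like cells, against 0.211, 0.207, 0.140 and 0.165 in the other cells, with no overlap (log2 fold change 1.18 ± 0.09 SE, adjusted p = 7.4e-05). Lama5 had 0.222, 0.0979, 0.121 and 0.119, against 0.0881, 0.0382, 0.0176 and 0.0266 (2.22 ± 0.25). Lamb3 had 0.195 in cardiomyocyte-like cells of the SAN library and 0.0233 to 0.0316 in the other 3 libraries, against 0.0533 in the other cells of the SAN library and 0.00355 to 0.00974 elsewhere (2.37 ± 0.20). Lamb3 was higher in cardiomyocyte-like cells in each library, and its level in both groups was highest in the SAN library. Itga3 (2.25) and Lama2 (0.59) were also called higher. With scaling by library size alone the call on Lama2 was lost.

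The members called lower in cardiomyocyte-like cells were led by Itga8, Itga4 and Itgal. Itga8, chain of the nephronectin receptor, had 0.0258, 0.0186, 0.00587 and 0.0147 in cardiomyocyte-like cells, against 0.354, 0.468, 0.289 and 0.310 in the other cells (log2 fold change -4.13 ± 0.28 SE). Itga4, a VCAM1 receptor chain, had 0.000716 to 0.00514, against 0.0446 to 0.118 (-4.58 ± 0.35). Itgal had 0.00153 to 0.00396, against 0.0215 to 0.0615 (-3.32 ± 0.26). The others called lower were Itgb3, Itga2, Itgb2, Itgb4, Itgam, Itgav, Itgb8, Lama4, Itga7, Itga6, Itga2b and Lamc1, with log2 fold changes of -0.29 (Lamc1) to -4.06 (Itgam). Itgav had 0.264, 0.105, 0.0730 and 0.0909, against 0.470, 0.467, 0.298 and 0.372 (-1.35 ± 0.22). Itgb5 (-0.04, adjusted p = 0.88), Itga9 (-0.81, adjusted p = 0.10), Itga10, Itgb1, Itga1, Lamb1, Itga5 and Lama3 were not called. Itgb5 was lower in cardiomyocyte-like cells of the SAN and AVN/His libraries (0.402 and 0.327, against 0.855 and 0.562) and near the other cells in the left and right libraries (0.278 and 0.322, against 0.267 and 0.309).

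In both endothelial classes Itga6, Itga5, Itga9, Itgb4 and Lama4 were called higher than in the other cells, and Itgb5, Lama2, Lama5 and Lamb3 lower. Itgb4 was scarce in both, at means of 0.0663 in endocardial-like (83 UMIs) and 0.0156 in coronary endothelial-like cells (25 UMIs). In endocardial-like cells 8 of 31 members were higher and 12 lower, beside 17.6% and 24.8% of all 14566 genes (median log2 fold change -0.16 over members, -0.08 over all genes). Itga6 had 2.91, 2.76, 2.56 and 3.57 UMIs per 10000 in endocardial-like cells, against 0.798, 0.341, 0.290 and 0.504 in the other cells (log2 fold change 2.41 ± 0.18 SE, adjusted p = 1.4e-06). Itga9 had 0.655, 0.880, 0.467 and 0.509, against 0.169, 0.248, 0.101 and 0.161 (1.62 ± 0.15). Lama4, the laminin alpha chain typical of vessels, had 1.78, 1.11, 1.35 and 1.93, against 0.653, 0.582, 0.566 and 0.654 (1.02 ± 0.15). All 3, which were picked by their p, were higher in 4 of 4 libraries with no overlap. Itgb4 (3.50), Itga5 (1.06), Lamc3 (3.0, 10 UMIs in the class), Lama1 (3.50, 7 UMIs in the class) and Itgb3 (0.88) were also called higher, and Itgb4 had 0 UMIs in the 45 endocardial-like cells of the left library. With DESeq2 the calls on Lama1 and Itgb3 were lost (adjusted p of 0.090 and 0.066).

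Itgb5 was the member called lower in endocardial-like cells with the smallest p: 0.0952, 0.0722, 0.0983 and 0.0526, against 0.660, 0.441, 0.277 and 0.324 in the other cells (log2 fold change -2.81 ± 0.20 SE, adjusted p = 1.1e-06). Lama2 had 0.0238, 0.0131, 0 and 0.0263, against 0.164 to 0.360 (-3.98 ± 0.30), and Itgb8 had 0 to 0.00656, against 0.0136 to 0.0995 (-4.20 ± 0.51). The others included Itga1, Lamb3, Lama5, Itgal, Itga4, Itga7, Itga3 and Itgam, the last with 0 UMIs in the class and no adjusted p from DESeq2. Itgav (0.14, adjusted p = 0.65), Lamc1, Itga8, Itga10, Itgb2, Itgb1, Lamb2, Itga2b, Itga2, Lamb1 and Lama3 were not called. Without the SAN library, which held 474 of the 780 endocardial-like cells, 5 members were called higher and 6 lower.

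In coronary endothelial-like cells 10 of 29 members were higher and 12 lower, beside 28.1% and 33.4% of all 14297 genes (median log2 fold change -0.72 over members, -0.08 over all genes). Itga2, the alpha chain of a collagen receptor, had the smallest p among the members called higher. It had 0.0673, 0.0920, 0.0693 and 0.0842 UMIs per 10000, against 0.00468, 0.00410, 0.00404 and 0.00315 in the other cells (log2 fold change 4.25 ± 0.28 SE, adjusted p = 9.4e-06). Lama4 had 1.28, 1.21, 1.07 and 1.19, against 0.731, 0.542, 0.524 and 0.597 (0.96 ± 0.10), and Itga6 had 1.61, 2.14, 1.71 and 1.95, against 0.961, 0.253, 0.173 and 0.339 (2.41 ± 0.37). Lamc1 (0.50), Itga5 (0.68), Itga2b (1.22), Itga9 (0.97), Lama3 (2.45), Itgb1 (0.29) and Itgb4 (1.34) were also higher. Itga9 had 0.307, 0.285, 0.351 and 0.328, against 0.209, 0.263, 0.0804 and 0.141. Without the right library the call on Itga9 was lost (adjusted p = 0.071) and 6 members were called higher.

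Itgb5 was again the lowest by p, at 0.0421, 0.0350, 0.0231 and 0.0251, against 0.635, 0.466, 0.300 and 0.369 in the other cells (log2 fold change -3.84 ± 0.14 SE, adjusted p = 1.1e-06). Itga8 had 0.0463, 0.0219, 0.00462 and 0.0148, against 0.0674 to 0.235 (-3.06 ± 0.29). Itgav had 0.114, 0.109, 0.0739 and 0.0872, against 0.369, 0.279, 0.122 and 0.216 (-1.31 ± 0.15). Lama5, Lama2, Itgb8, Lamb3, Itga7, Itga4, Itga3 and Lamb2 were also called lower, from -0.72 (Lamb2) to -5.41 (Itgb8, 2 UMIs in the class). Itga10, Itgal, Itgam, Itgb2, Itgb3, Itga1 and Lamb1 were not called.

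Set directly against coronary endothelial-like cells, endocardial-like cells had more of 8 of the 16 members tested and less of 2, beside 18.9% and 20.2% of all 11265 genes (median log2 fold change 0.35 over members, 0.02 over all genes). Itga8 had 0.299, 0.164, 0.0983 and 0.0702 in endocardial-like cells, against 0.0463, 0.0219, 0.00462 and 0.0148 in coronary endothelial-like cells (log2 fold change 2.61 ± 0.32 SE, adjusted p = 0.00012). Itgav had 0.264, 0.486, 0.197 and 0.325, against 0.114, 0.109, 0.0739 and 0.0872 (1.54 ± 0.21). Itga9 had 0.655, 0.880, 0.467 and 0.509, against 0.307, 0.285, 0.351 and 0.328 (0.83 ± 0.19). Itga6 (0.48), Itgb4 (1.91), Itgb3 (1.37), Itga5 (0.37) and Itgb5 (1.05) were also higher, and with DESeq2 the calls on Itgb4, Itga5 and Itgb5 were lost (adjusted p of 0.085, 0.061 and 0.081). Itgb5 stayed low in both classes (0.0796 ± 0.021 in endocardial-like and 0.0313 ± 0.0089 in coronary endothelial-like cells, SD, n = 4 each), and its call was lost when any 1 library was left out (adjusted p of 0.058 to 0.097).

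The members lower in endocardial-like than in coronary endothelial-like cells were the neighboring collagen receptor genes Itga1 and Itga2. Itga1 had 0.0476, 0.0263, 0 and 0.0614, against 0.0841, 0.215, 0.125 and 0.161 (log2 fold change -1.88 ± 0.39 SE, adjusted p = 0.0031). Itga2 had 0.0198, 0.0788, 0 and 0.00877, against 0.0673, 0.0920, 0.0693 and 0.0842 (-1.56 ± 0.46, adjusted p = 0.021). The call on Itga2 was lost without the SAN, the left or the right library (adjusted p of 0.077, 0.055 and 0.083). The laminin genes tested, Lama4, Lamb1, Lamb2 and Lamc1, and Itgb1 and Itga2b were not called.

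Fibroblast-like cells had the highest mean of Lamb1 (1.48) and Lamc1 (1.45) over libraries among the 15 classes, with Lama2, Lama4, Itga8, Itgb8, Itgav, Itgb3 and Itgb5 above the other cells. Of 30 members tested, 10 were higher and 13 lower, beside 26.4% and 31.4% of all 14661 genes (median log2 fold change -0.37 over members, -0.05 over all genes). Lama2 had 0.515, 0.434, 0.402 and 0.407 UMIs per 10000 in fibroblast-like cells, against 0.280, 0.170, 0.148 and 0.149 in the other cells (log2 fold change 1.10 ± 0.11 SE, adjusted p = 0.00046). Itgb3, partner of alpha v, had 0.0775, 0.120, 0.0931 and 0.111, against 0.0338, 0.0295, 0.0141 and 0.0268 (1.78 ± 0.24). Lamb1 had 1.24, 1.30, 1.5 and 1.89, against 0.815, 0.538, 0.612 and 0.621 (1.02 ± 0.15). None of the 3, which were picked by their p, overlapped between the groups. Itgb5 had 1.52, 0.843, 0.596 and 0.615, against 0.368, 0.366, 0.257 and 0.277 (1.23 ± 0.19), and Itgav had 0.607, 0.603, 0.633 and 0.697, against 0.291, 0.212, 0.0873 and 0.129 (1.77 ± 0.28). Itga8 had the largest log2 fold change (3.61 ± 0.59), followed by Itgb8 (2.85), and Lamc1 (0.69), Lama4 (0.54) and Itgb1 (0.26) were the other members called higher.

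Itga3, Lama5 and Itga6 were the members lower in fibroblast-like cells with the smallest p. Itga3 had 0.00682, 0.00529, 0.00744 and 0.00562, against 0.0681, 0.0546, 0.0440 and 0.0466 in the other cells (log2 fold change -3.31 ± 0.24 SE). Itga6 had 0.406, 0.208, 0.223 and 0.289, against 1.14, 0.439, 0.314 and 0.622 (-1.24 ± 0.14), and Lama5 had 0.00375 to 0.0366, against 0.0801 to 0.194 (-2.90 ± 0.33). Itga9 had 0.184, 0.128, 0.0819 and 0.127, against 0.221, 0.286, 0.106 and 0.175 (-0.74 ± 0.17, adjusted p = 0.011). Lamb3, Itga5, Itgam, Itgb2, Lama3, Lamb2, Itga2 and Itga10 were also lower, and Itga4, Itgal, Itga7, Itga11, Itga2b, Itgb4 and Itga1 were not called. Without the library block, 7 members were called lower.

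Mural-like cells were pericyte-like in all 4 libraries together with smooth muscle-like in the SAN and AVN/His libraries. As a group they had more of the integrin alpha genes Itga7, Itga4, Itga1 and Itga8, though Itga1 was low in smooth muscle-like cells. Of 29 members tested, 8 were higher and 7 lower, beside 15.0% and 19.7% of all 14645 genes (median log2 fold change -0.17 over members, -0.07 over all genes). Itga7 had 0.230, 0.319, 0.273 and 0.535 UMIs per 10000 in mural-like cells, against 0.0329, 0.0156, 0.0105 and 0.0161 in the other cells (log2 fold change 4.11 ± 0.35 SE, adjusted p = 7.9e-05). Itga4 had 0.510, 0.488, 0.182 and 0.165, against 0.0462, 0.0384, 0.00545 and 0.0191 (3.56 ± 0.29). Itga1 had 0.485, 0.546, 0.792 and 0.865, against 0.158, 0.179, 0.133 and 0.186 (1.85 ± 0.17). The groups did not overlap for any of the 3, which were picked by their p. Itga8 (1.98), Itgb1 (0.54), Itgb3 (1.58), Itgav (1.30) and Itga10 (2.11) were the others. Itgav had 0.459, 0.550, 0.556 and 0.664, against 0.356, 0.254, 0.107 and 0.176.

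The classes within the mural group were unlike each other. Itga8 averaged 1.68 in smooth muscle-like cells of 2 libraries and 0.310 in pericyte-like cells of 4, and Itga4 averaged 0.759 and 0.219. Itga1 averaged 0.864 in pericyte-like cells, more than in any other class. In smooth muscle-like cells it averaged 0.0840, below its level in the other cells of the SAN and AVN/His libraries. Itga7 averaged 0.398 in pericyte-like and 0.127 in smooth muscle-like cells. Itga9 averaged 0.753 in smooth muscle-like cells. Over the whole group it had 0.421, 0.401, 0.137 and 0.113, against 0.210, 0.260, 0.104 and 0.172 (log2 fold change 0.23, adjusted p = 0.54), and with pericyte-like cells alone it was lower (-0.71, adjusted p = 0.034). Itga5 (0.140, 0.169, 0.237 and 0.139, against 0.389, 0.410, 0.368 and 0.463) and Lama2 (0.179, 0.116, 0.0364 and 0.0669, against 0.331, 0.209, 0.165 and 0.184) were among the members called lower, with log2 fold changes of -1.45 and -1.37. Lama4, Lamb3, Lamb2 and Itga2 (0 UMIs in the class) were also called lower. Itgb5 (0.867, 0.714, 0.310 and 0.525, against 0.606, 0.420, 0.275 and 0.308; adjusted p = 0.053), Lamc1, Itga6, Lama5, Itgal, Itgam, Itgb2, Itga3, Itga2b, Itgb4, Lamb1, Itgb8 and Lama3 were not called.

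Macrophage-like cells had more of Itgal, Itgam, Itgax, Itgb2, Itgb7 and Itga4, genes of integrins found on leukocytes, and less of the laminin genes Lama4, Lamb1 and Lamc1. The leading genes of this cluster held S100a8 and S100a9, from the marker list of other leukocytes, beside C1qa, C1qb and C1qc. Whether other leukocytes were part of the class was not tested. Itgad and Itgae, also leukocyte genes, were too scarce to be tested, with 0 and 1 UMIs in the class. Of 31 members tested, 8 were higher and 14 lower, beside 17.1% and 27.7% of all 14499 genes (median log2 fold change -0.89 over members, -0.32 over all genes). Itgal, the alpha chain of LFA-1, had 0.937, 0.514, 0.616 and 0.762 UMIs per 10000, against 0.00516, 0.00382, 0.00452 and 0.00362 in the other cells (log2 fold change 7.35 ± 0.28 SE, adjusted p = 2.9e-23). A UMI of Itgal was found in 36.3% of macrophage-like cells and in 0.229% of cardiomyocyte-like cells, at medians of 6165 and 9252 UMIs per cell. Itga4 had 0.705, 0.554, 0.548 and 0.923, against 0.0346, 0.0483, 0.00780 and 0.0115 (4.80 ± 0.32). Itgb2, partner of the alpha L, M and X chains, had 0.193, 0.608, 0.274 and 0.205, against 0.000616 to 0.00184 (7.76 ± 0.52). Itgam (8.85), Itgax (8.11, 23 UMIs in the class), Itgb7 (7.37, 13 UMIs), Itgb5 (1.13) and Itga9 (1.42) were also higher. Itgam and Itgax were at 0 in the 22 macrophage-like cells of the left library. UMIs of both Itgal and Itgb2 were found in 29 of 399 macrophage-like cells, of both Itgam and Itgb2 in 18, and of both Itgax and Itgb2 in 6. Itgam counts are the sum of 2 gene identifiers with that symbol, and the test used the one with more UMIs.

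Itgb5 had 1.03, 0.879, 1.10 and 0.733 in macrophage-like cells, against 0.598, 0.425, 0.273 and 0.311 in the other cells. Itga9 had 0.691, 0.473, 0.205 and 0.498, against 0.20, 0.262, 0.104 and 0.165. Itgav had 0.445, 0.270, 0.205 and 0.381, against 0.355, 0.265, 0.117 and 0.194 (log2 fold change 0.47, adjusted p = 0.080). Lama4 (0.180, 0.122, 0.137 and 0.117, against 0.771, 0.603, 0.574 and 0.695), Lamb1 (0.219, 0.135, 0.0685 and 0.249, against 0.923, 0.649, 0.663 and 0.780) and Lamc1 (0.226, 0.324, 0.274 and 0.249, against 1.03, 0.852, 0.712 and 0.916) led the members called lower, with log2 fold changes of -2.23, -2.02 and -1.80. Lamb2, Itga1, Lama5, Lama2, Itga8, Itgb1, Itga5, Itga3, Itgb8 and Lamb3 were also called lower. Itga6, Itga10, Itga7, Itga2b, Itgb3, Itgb4, Itga2 and Lama3 were not called.

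The remaining classes were found in fewer libraries or fewer cells, were not tested, and are described by level. Epicardial-like cells (176 in the SAN and 25 in the AVN/His library) had the highest Lama5 (0.628 and 0.589 UMIs per 10000), Itgb8 (0.605 and 0.785), Itga3 (0.439 and 0.262), Lamb3 (0.383 and 0.393) and Lama3 (0.102 and 0.196) of all classes by the mean over libraries, although Lamb3 was close in PF-like cells (means of 0.388 in epicardial-like and 0.356 in PF-like cells). UMIs of both Itgav and Itgb8 were found in 59 of 201 epicardial-like cells (29.4%), against 10 of 9735 ventricular-like cells (0.103%). The other endothelial-like cells, 64 and 33 in the same libraries, had the highest Itga9 of all classes (2.86 and 2.43), with Itga6 at 2.64 and 2.43. The 1034 valve mesenchyme-like cells of the AVN/His library had Itga10 at 0.0644 and Itga11 at 0.0215, on 45 and 15 UMIs. The neural-like cells of the SAN library had Itga6 at 1.44, Itga4 at 0.609 and Itga2 at 0.109, the last on 5 UMIs.

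The laminin genes can also be read as the share of each chain among the UMIs of its chain type. Lama4 made up 96.2% of laminin alpha UMIs in endocardial-like and 95.1% in coronary endothelial-like cells, 66.8% in fibroblast-like, 61.0% in ventricular-like, 49.1% in atrial-like and 45.8% in PF-like cells. Lama5 had its largest shares in epicardial-like (48.4%) and smooth muscle-like cells (42.9%). Lamb2 made up 50.3% of laminin beta UMIs in PF-like cells, the only class in which Lamb1 (31.4%) was not first, and Lamb3 made up 18.3% there, 24% in epicardial-like and 14.3% in atrial-like cells. Lama1 stayed under 3% of the alpha UMIs in every class.

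**Figure D5:**
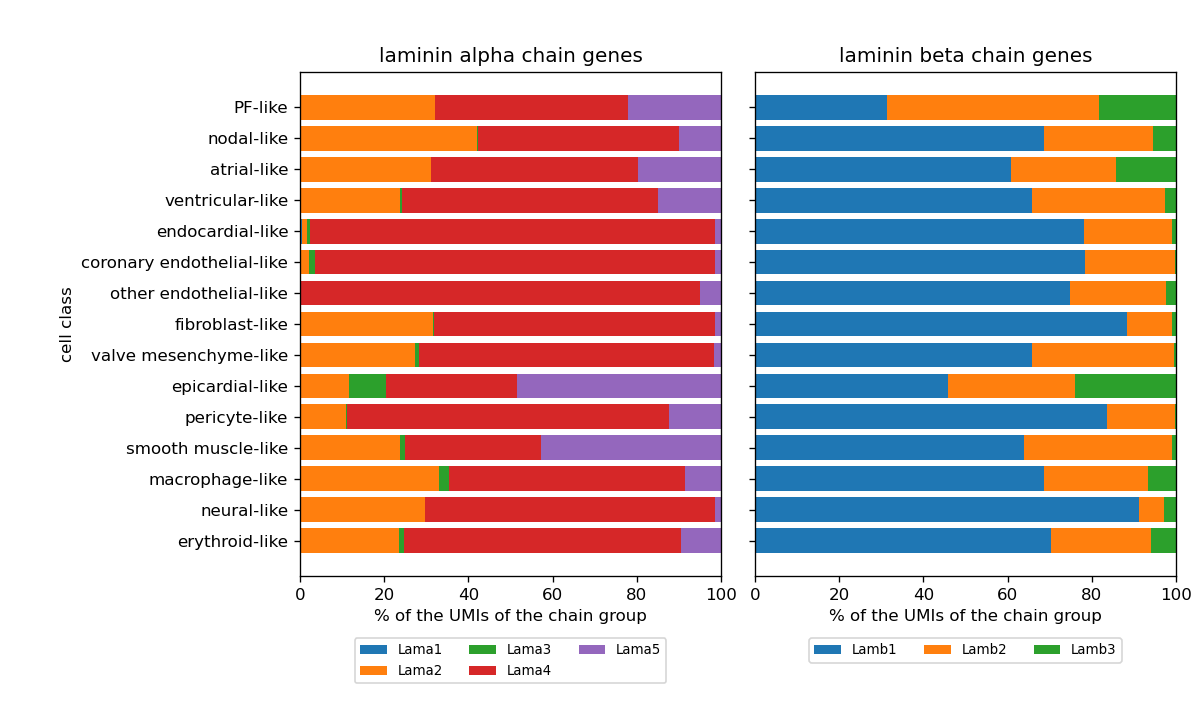
Share of each laminin alpha and beta gene among the UMIs of its chain type, pooled over libraries, in 15 cell classes. Lama4 fills the alpha bar of the endothelial classes, and Lamb2 and Lamb3 are wide in PF-like cells.

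Across regions within a class the rule for a difference was a highest library at least 2-fold above the lowest, at least 50 UMIs in the class, and 95% counting intervals that did not meet. There was 1 library a region, so no test was possible, and 23 pairs of gene and class passed. How many of all genes pass this rule was not computed, so the counts here and below are no result about the members as a group. In fibroblast-like cells 5 of 20 members passed. Lama5 had 0.0366 in the SAN and 0.00375 in the right library (2 UMIs in the right library), Itga4 had 0.0741 in the AVN/His and 0.0225 in the right library, and Itgb5 had 1.52 in the SAN and 0.596 in the left library. Itga9 and Lamb2 were also highest in the SAN and lowest in the left library. In atrial-like cells Lamb3 had 0.202 in the SAN and 0.0225 in the AVN/His library (ratio 8.96, on 564 and 2 UMIs), and Itgb8 and Itga9 were 3.41 and 2.43 times as high in the AVN/His library.

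In ventricular-like cells 8 of 21 members passed, and each of the 3 largest folds came from the 56 cells of the SAN library. Itga8 had 0.185 there and 0.00570 in the left library, Itgb3 had 0.171 there and 0.00839 in the right, and Itga6 had 1.18 there and 0.0763 in the AVN/His library. As 14 of the 56 cells held UMIs of at least 3 endothelial markers, the part of other cells in these values was not tested. Without the SAN library 3 members passed: Itgb8 (0.0196 in the AVN/His and 0.00337 in the left library), Itga9 (0.261 and 0.0671) and Itga8 (0.0196 and 0.00570).

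The remaining differences were single genes. Itgb8 in nodal-like cells had 0.628 in the AVN/His and 0.203 in the SAN library. Itga8 in endocardial-like cells had 0.299 in the SAN and 0.0702 in the right library, and Itga1 in coronary endothelial-like cells had 0.215 in the AVN/His and 0.0841 in the SAN library. In pericyte-like cells Itga8 had 0.438 in the AVN/His and 0.191 in the left library, and Itgb5 had 0.696 in the SAN and 0.310 in the left library. Itgb2 in macrophage-like cells had 0.608 in the AVN/His and 0.193 in the SAN library, and Lamc1 in valve mesenchyme-like cells had 0.640 in the AVN/His and 0.189 in the left library, on 3 UMIs. In PF-like cells none of the 9 members with at least 50 UMIs passed across 3 libraries.

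The partners of these subunits were followed in 4 lists, whose shares can be read beside the percentages of all genes given with each test. Of 14 basement membrane genes, 9 were higher and 5 lower in coronary endothelial-like cells, with Hspg2 (perlecan, log2 fold change 1.93) and Col4a1 (2.26) among the higher, and 6 were higher and 4 lower in endocardial-like cells. In macrophage-like cells 13 were lower and 0 higher (edgeR, also 0 at an unadjusted p under 0.05 and 0 with DESeq2), with a median log2 fold change of -2.32. In PF-like cells 6 of 13 tested were higher, Sparc (1.77), Col4a5 (1.32), Agrn (1.33) and Hspg2 (0.96) among them, and 1, Ntn4 (-3.21), was lower, with a median of 0.10 over the list. DESeq2 called 4 higher and 0 lower (also 0 lower at an unadjusted p under 0.05). Cardiomyocyte-like cells had 2 higher, Col4a5 (2.89) and Col4a6 (3.23), and 8 lower, fibroblast-like cells 5 higher and 7 lower, and mural-like cells 5 of each. Of 11 other laminin receptors, the dystroglycan complex with Bcam, 8 were higher and 1 lower in cardiomyocyte-like cells, with Dag1 at 1.64 and a list median of 1.99. The counts were 2 higher and 9 lower in both fibroblast-like and coronary endothelial-like cells, and 2 and 4 in mural-like cells. In endocardial-like cells 7 were lower and in macrophage-like cells 11, and in both 0 were higher (edgeR, also 0 at an unadjusted p under 0.05 and 0 with DESeq2). In PF-like cells 4 of 11 were higher, Bcam (0.98), Sgca (1.04), Dag1 (0.60) and Sspn (0.41), with a list median of 0.36. In edgeR 0 were lower (1 at an unadjusted p under 0.05), and DESeq2 called 3 higher and 0 lower.

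Of 15 integrin ligands, 13 were lower and 0 higher in cardiomyocyte-like cells (edgeR, also 0 at an unadjusted p under 0.05 and 0 with DESeq2), with a median log2 fold change of -3.96, and 7 were higher in fibroblast-like cells, where Postn (periostin, log2 fold change 4.23), Tnc (3.72) and Fn1 (2.33) stood out, with 5 lower. Endocardial-like cells had 7 higher, Fn1 (2.51) among them, and 4 lower, coronary endothelial-like cells 4 higher and 6 lower, mural-like cells 4 higher, Vtn (vitronectin, 7.21) among them, and 5 lower, and macrophage-like cells 5 higher, Spp1 (osteopontin, 7.84) among them, and 8 lower. With no library block, 1 ligand was called lower in macrophage-like cells (3 at an unadjusted p under 0.05). In PF-like cells 1 of 11 tested was higher, Npnt (nephronectin, 2.45), and 3 were lower, Postn (-2.95), Icam2 (-4.18) and Fn1 (-1.72). DESeq2 called 0 ligands higher there (1 at an unadjusted p under 0.05) and 1 lower. Of 17 integrin adaptors tested in each class, cardiomyocyte-like cells had 4 higher, Itgb1bp2 (melusin, 3.99), Tln2 (1.59), Vcl (1.07) and Parvb (0.83), and 6 lower. Macrophage-like cells had 4 higher, Fermt3 (kindlin-3, 7.17) among them, and 11 lower. In PF-like cells 1 of 15 was higher, Parvb (0.54), and 3 lower, Vcl (-1.37), Tln2 (-0.70) and Ilk (-0.46). DESeq2 called 0 adaptors higher there (also 0 at an unadjusted p under 0.05) and 1 lower, and with no library block 0 were higher in edgeR (3 at an unadjusted p under 0.05).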

How the data were processed

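Single-cell suspensions of 4 microdissected regions of E16.5 CD1 mouse hearts were profiled with the 10x Genomics 3' chemistry, 1 library a region. The authors deposited raw UMI counts per gene and barcode, and per the labels they were made with Cell Ranger against mm10. The Cell Ranger version and the gene annotation are not given in the sources used here. The unfiltered depth was 49328589 to 58029660 UMIs a library.

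Cells with at least 500 genes and 1000 UMIs were kept. Counts were scaled to 10000 UMIs and log-transformed, UMI number and ribosomal share were regressed out, and 2000 variable genes, without the 97 subunit and partner genes, gave 30 principal components, a graph of 30 neighbors and Leiden clusters at resolution 1.0 (scanpy 1.11.5, leidenalg 0.10.2, Python 3.11.15). A planned second level of clustering was replaced by this single level. Clusters were named where 3 or more, and no fewer than 50%, of a class's markers had an average log fold change of 0.25 and were found in 10% of cells. No doublets were removed. Scrublet marked 128, 101, 3 and 0 cells in the 4 libraries, an automatic threshold that failed in the left and right libraries, and 186, 148, 144 and 74 at a fixed score of 0.2.

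UMIs were summed per library and class where a library had at least 20 cells of the class, and tested with edgeR 4.0.16 (quasi-likelihood test, TMM factors, filterByExpr, library as a block, R 4.3.3), with Benjamini-Hochberg adjustment over all genes tested at 0.05. All adjusted p-values come from this test unless DESeq2 1.42.0 is named. The script was tested on simulated data. The block pairs both sums of 1 library, which come from the same dissociated tissue. Poisson and binomial intervals are exact, at 95%, and cover counting error only.

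The members and gene lists were chosen with earlier results of these data known. Values in every library are given, in each test, for the 3 members with the lowest p in each direction among those called, and for Itgb5, Itga9 and Itgav. Across regions, members are named by the size rule stated there. Values of some genes are not reported here, so names listed, and genes drawn, can be fewer than the counts beside them. The study's own marker tables were not used as results.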

Additional observations from a re-analysis of the deposited data

Results flagged for a closer look

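Itga6 moved in opposite directions in the nodal-like cells of the 2 regions: its level was 6.45 times that of working myocyte-like cells in AVN/His-like cells and 0.355 times in SAN-like cells. The difference between the regions was not tested, as each region is 1 library. The working myocyte-like cells were mainly ventricular-like in the AVN/His library and mainly atrial-like in the SAN library, and atrial-like cells had 7.51 times the Itga6 level of ventricular-like cells within the AVN/His library. In the SAN library the atrial-like cells had 0.921 UMIs per 10000 and the 56 ventricular-like cells 1.18. Set against the 71 atrial-like cells of that library, the AVN/His-like ratio was 1.02 (95% interval for counting error 0.666 to 1.57).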

How the results depend on the processing

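Of 62 gene results given with values in every library, 50 kept their direction and call under every alternative counted, 7 lost a call, 3 gained one and 2 changed sign. A sign change of a result called in neither fit was not counted where the move was smaller than its SE. Fits in which the gene was not tested, and scaling by library size alone, are not part of these counts. Itgb5 in cardiomyocyte-like cells, which was not called, stood at 0.20 on the log2 scale (adjusted p = 0.30) without the SAN library and between -0.21 and 0.20 over the fits that left out 1 library, and Itga9 in mural-like cells had -0.71 (adjusted p = 0.034) with pericyte-like cells alone, an alternative chosen after seeing the data. In PF-like cells the 8 members called higher became 4 with DESeq2, 4 with no filter on low counts and 4 with no library block, and the 1 called lower became 0 with DESeq2 (0 at an unadjusted p under 0.05), 0 with no library block (edgeR, 1 at an unadjusted p under 0.05) and 0 at 1.5 times the resolution. The PF-like class was not found with 10 principal components or at 0.5 times the resolution, so those fits could not be made. Between the endothelial classes DESeq2 called 5 members higher, and with no library block 7 members were lower in fibroblast-like cells.

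Leaving out each library in turn gave 5 to 8 members higher and 6 to 12 lower in endocardial-like cells, 6 to 9 higher in coronary endothelial-like cells, and 4 to 7 higher and 1 to 2 lower between the endothelial classes. Among the partner lists, the fit without the library as the replicate block gave 1 integrin ligand lower in macrophage-like cells against 8 with the block, 3 against 5 in both fibroblast-like and mural-like cells and 2 against 4 in endocardial-like cells, 3 basement membrane genes lower against 5 in mural-like cells, and 1 other laminin receptor higher against 2 in both coronary endothelial-like and mural-like cells. DESeq2 also lost the calls on Itgam in fibroblast-like, Itga2 in mural-like and Lamb3 in macrophage-like cells (adjusted p of 0.062, 0.070 and 0.41), and scaling by library size alone those on Itga10 in fibroblast-like and Lamb2 and Itga2 in mural-like cells (adjusted p of 0.058, 0.064 and 0.050). The resolution alternatives changed the single level of clustering. Pairs of gene and class past the region rule numbered 23 in the main setting and 18 to 24 in the others. The cause of these changes was not tested. Depth limits the values of small classes, such as the 167 PF-like and 244 nodal-like cells.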

Other observations

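Itga2b and Itgb3 encode the platelet fibrinogen receptor. A single cell of the right library, which clustered with the erythroid-like cells, held 62 UMIs of Itga2b and 41 of Itgb3, of 632 and 728 in all kept cells, together with UMIs of at least 3 of 4 platelet genes (Pf4, Ppbp, Gp9 and Gp1bb, a list chosen after the values were seen).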
